A study of Arabidopsis thaliana with 12 samples.

Results

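PWD and DPE1 encode enzymes of the plastid that take part in the breakdown of leaf starch. Starch builds up in the chloroplast during the day and is taken apart at night to feed the plant until dawn. The first step loosens the granule surface: glucan, water dikinase adds phosphate to the glucan chains, and PWD (phosphoglucan, water dikinase) adds further phosphate to chains that already carry some. Amylases and debranching enzymes then release maltose and short malto-oligosaccharides. DPE1, the plastidial disproportionating enzyme, transfers glucan segments between the short chains such as maltotriose and sets glucose free, so it acts near the end of the route, whereas PWD acts at its start.

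The probe sets were those that the platform annotation ties alone to the symbol PWD or DPE1. There were 3 of them among the 22746 probe sets tested, of which 13513 are tied to 1 gene. They stand for 3 of the 13286 genes of the reference gene table that have a probe set of their own. DPE1 (locus AT5G64860) has 1 probe set. The symbol PWD covers 2 loci, AT5G26570 and AT4G24450, each with 1 probe set. AT5G26570, for which the reference gene table also lists OK1 and ATGWD3, names in use for phosphoglucan, water dikinase, is called PWD here. The table lists the same full name for both loci, and for AT4G24450 both ATGWD2 and GWD3, so that it does not by itself tell the loci apart. AT4G24450 is therefore described separately under its locus. Both PWD and DPE1 lie on chromosome 5 and AT4G24450 lies on chromosome 4. Positions on the chromosomes are left out here.

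All seedlings were 14 d old whole Arabidopsis thaliana seedlings of the Col-0 line 35S:HF-RPL18B, grown on 1% sucrose in days of 16 h light and 8 h darkness. In this line the near-constitutive 35S promoter drives a His6-FLAG-tagged ribosomal protein L18B, by which ribosomes and the mRNAs on them are captured from an extract that contains cycloheximide and chloramphenicol. Starting at the middle of the light period, seedlings stayed in light for 1 h (light), were darkened for 1 h (dark), or were darkened for 1 h and then lit for 10 min (reillumination). From each condition, RNA of the clarified extract (total RNA) and RNA of the captured ribosomes (polysomal RNA) were hybridised to 2 Affymetrix ATH1 arrays each, from independent biological replicate experiments, which gives 6 groups and 12 arrays. The control plants carry the transgene too, and no untagged plants were analysed here.

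The values are log2 expression after robust multi-array averaging (RMA), which makes the arrays' distributions alike, so each difference is relative to the rest of the array. A change common to all transcripts would not show, and a polysomal value below the total value means a smaller place among the captured mRNAs, not a measured share of molecules on ribosomes. In whole seedlings, fewer cells of a type and less RNA per cell cannot be told apart. Across probe sets, r was 0.993 to 0.995 between replicate arrays and 0.959 to 0.977 between arrays of different pools. Differences were tested with limma in 1 fit of 6 group means, with Benjamini-Hochberg adjustment over the whole table of 22746 probe sets, and called at an adjusted p under 0.05. Values after ± are standard errors of that fit with n = 2 arrays per group. Whether the arrays of groups overlap is given as description only. The share of all probe sets whose arrays lie apart was not counted.

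PWD was lower in polysomal than in total RNA in every condition, and the gap narrowed in darkness. DPE1 was lower in polysomal RNA by an amount for which no change between conditions passed the test. In light, the log2 level of PWD was 9.09 and 9.15 on the 2 total RNA arrays and 7.85 and 7.90 on the 2 polysomal arrays. In darkness the total RNA arrays read 8.82 and 8.78 and the polysomal arrays 8.23 and 8.20. After reillumination the total RNA arrays read 8.89 and 8.84 and the polysomal arrays 8.05 and 7.97. The total and polysomal arrays of PWD did not overlap in any condition, and the darkened seedlings had both the lowest total and the highest polysomal values.

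The log2 level of DPE1 in light was 8.74 and 8.72 on the total RNA arrays and 7.87 and 7.83 on the polysomal arrays. In darkness these were 8.77 and 8.66 for total RNA, with 8.04 and 8.09 for polysomal RNA. After reillumination they were 8.79 and 8.67 for total RNA, with 8.05 and 7.85 for polysomal RNA. DPE1 values in total RNA overlapped between all conditions, and those in polysomal RNA lay apart between light and darkness only.

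**Figure D1:**
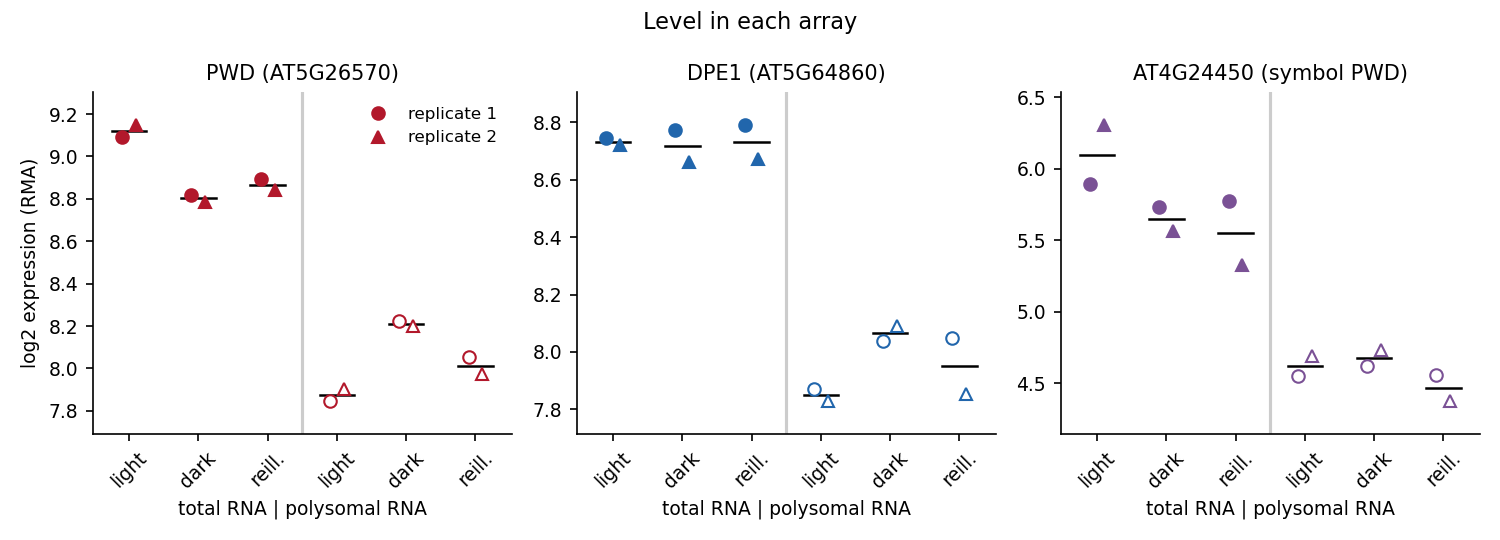
Log2 expression (RMA) of PWD, DPE1 and AT4G24450 on each of the 12 arrays, by condition (reill. is reillumination), with total RNA left (filled) and polysomal RNA right (open) of the grey line; circles are replicate 1, triangles replicate 2 and bars group means, and each panel has its own axis. For PWD the polysomal arrays span 7.85 to 8.23 and the total RNA arrays 8.78 to 9.15.

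The groups can be ordered by the mean level of each gene. For PWD the order was light total, reillumination total, dark total, dark polysomal, reillumination polysomal and light polysomal, so that the order of the conditions in polysomal RNA was the inverse of that in total RNA. Of the 5 pairs of neighbours in that order, dark total and dark polysomal RNA differed by the test and the other 4 missed it. The arrays of no neighbouring groups overlapped, which groups this small can do without a difference. For DPE1 the 3 total RNA groups lay within 0.014 of each other, followed by dark, reillumination and light polysomal RNA. Here too the step from dark total to dark polysomal RNA passed the test, while the arrays of the other 4 pairs of neighbours overlapped.

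The comparison of polysomal with total RNA asks how a transcript's place among ribosome-bound mRNAs differs from its place among all mRNAs. In light, PWD was 1.24 ± 0.10 log2 units lower in polysomal RNA, a level 42.3% of that in total RNA (log2 difference -1.24, 95% interval -1.45 to -1.03, limma adjusted p = 7.64e-06). DPE1 was at 54.3% of its total RNA level (log2 difference -0.88 ± 0.11, limma adjusted p = 0.000129). Of all probe sets 32.3% were called in this comparison and 17.6% were called lower in polysomal RNA. By size, 368 of the 22746 probe sets (1.62%) had a lower difference than PWD, and 1052 a lower one than DPE1.

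In darkness the gap was smaller for PWD. It was at 66.4% of its total RNA level (log2 difference -0.59 ± 0.10, limma adjusted p = 0.00117), and DPE1 at 63.6% (log2 difference -0.65 ± 0.11, limma adjusted p = 0.00121). Of all probe sets 23.5% were called in darkness and 11.8% were called lower in polysomal RNA. There, 1618 probe sets (7.11%) lay below PWD and 1307 (5.75%) below DPE1. By the mean difference the order of the genes was thus the reverse of that in light. It was so in replicate 1 (-0.59 for PWD and -0.74 for DPE1) and not in replicate 2 (-0.59 and -0.57). The difference between the genes was not tested.

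After reillumination PWD was at 55.3% (log2 difference -0.86 ± 0.10, limma adjusted p = 0.000137) and DPE1 at 58.2% of the total RNA level (log2 difference -0.78 ± 0.11, limma adjusted p = 0.000406). Of all probe sets 27.4% were called after reillumination and 14.6% were called lower in polysomal RNA. Probe sets with a lower difference than PWD numbered 854 (3.75%), between the numbers of the other conditions, and 1101 lay below DPE1.

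**Figure D2:**
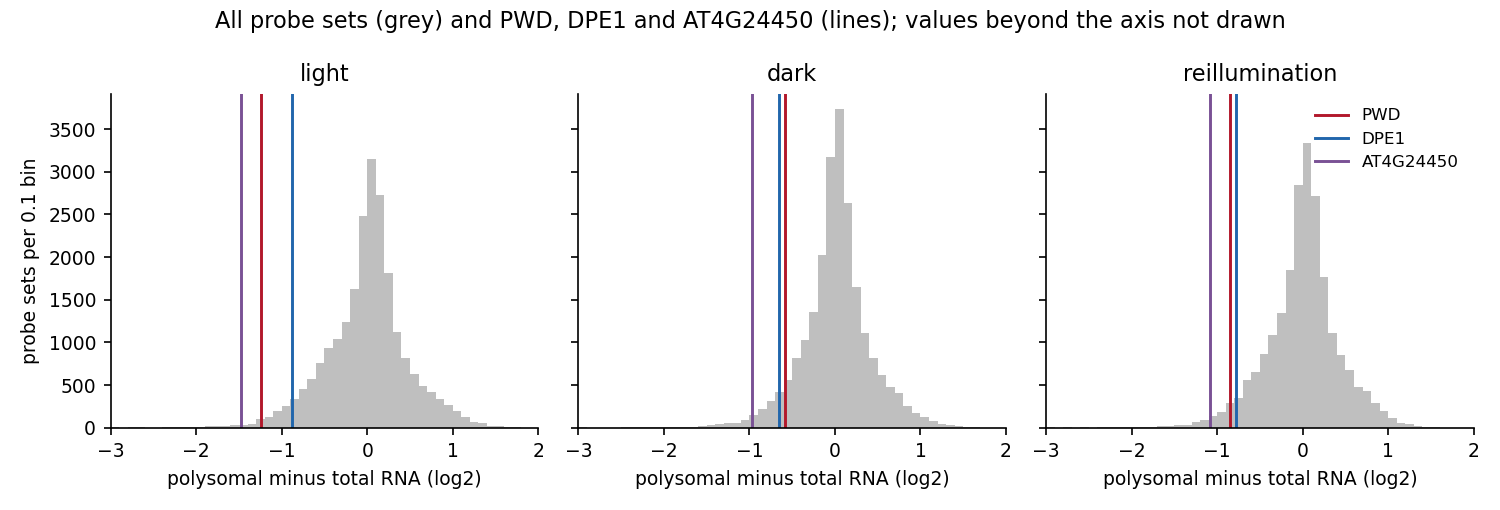
Number of probe sets (vertical axis, bins of 0.1) by their polysomal minus total RNA difference (log2, horizontal axis) in light, darkness and reillumination, with lines at PWD, DPE1 and AT4G24450. PWD moves from -1.24 in light to -0.59 in darkness, where it lies just right of DPE1 at -0.65.

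Total and polysomal RNA came from the same extracts, so the difference can also be taken within each replicate. For PWD it was -1.24 in both replicates in light, -0.59 in both in darkness, and -0.84 and -0.87 after reillumination. The replicates of PWD thus lay closer to each other than to those of any other condition. For DPE1 it was -0.87 and -0.89 in light, -0.74 and -0.57 in darkness, and -0.74 and -0.82 after reillumination, so that the replicate 1 values of darkness and reillumination lay side by side. Over the 6 extracts the mean difference was -0.90 for PWD (SD 0.29) and -0.77 for DPE1 (SD 0.12). All 6 of 6 extracts lay below 0 for each gene, with an exact two-sided sign-flip permutation p = 0.03125, the smallest that 6 extracts can give. This test treats the extracts as independent, although they come from 2 replicate experiments whose arrays deviated together.

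**Figure D3:**
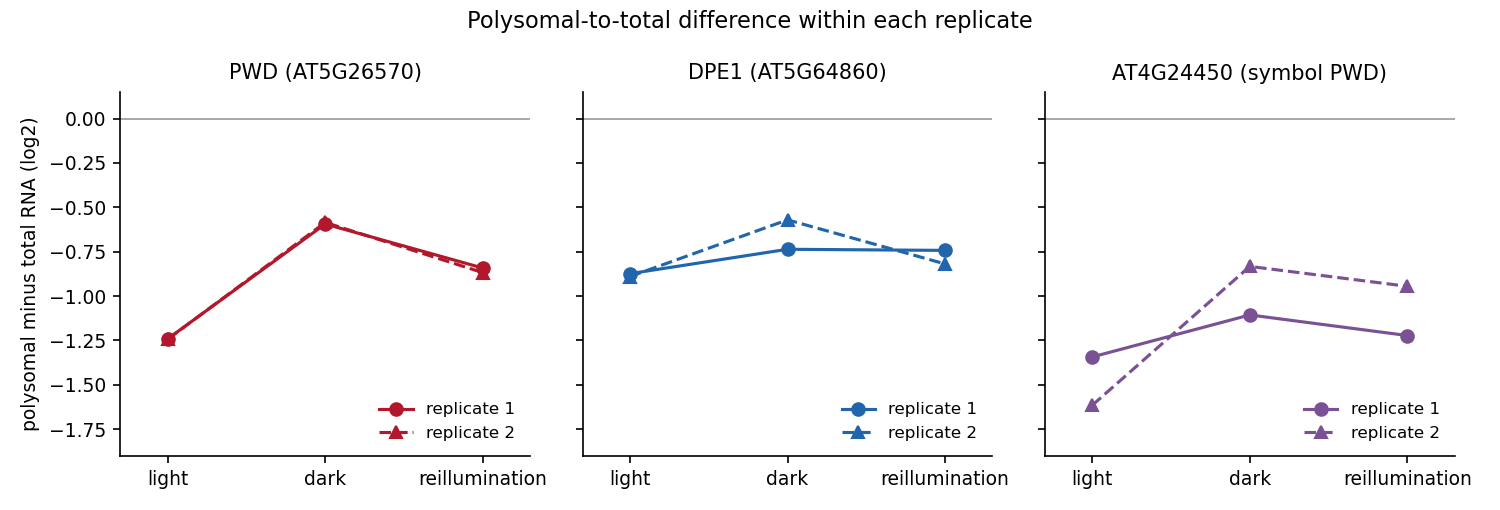
Polysomal minus total RNA (log2, vertical axis) within each replicate in light, darkness and reillumination for PWD, DPE1 and AT4G24450; circles with solid lines are replicate 1 and triangles with dashed lines replicate 2. The PWD lines lie on each other at -1.24 and -0.59 and close together after reillumination (-0.84 and -0.87), whereas the DPE1 replicates part in darkness (-0.74 and -0.57).

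The test of the interaction asks whether the difference between the pools itself changed with the light. For PWD it rose by 0.65 ± 0.14 log2 units from light to darkness (95% interval 0.35 to 0.95, 1.57-fold, limma adjusted p = 0.0485), by 0.65 in replicate 1 and 0.66 in replicate 2. In this comparison 1.09% of all probe sets were called, 0.334% as higher and 0.752% as lower in darkness, and 22166 probe sets (97.5%) had a smaller value than PWD. The call lies near the threshold. It was lost with the arrays centred on their medians (0.59, limma adjusted p = 0.0712), in a fit of the compared groups only (adjusted p = 0.0980) and when any 1 of the 12 arrays was left out (0.62 to 0.68, limma adjusted p between 0.0534 and 0.150).

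The log2 differences between 3' and 5' control probe sets, a sign of RNA quality, differed between these groups too. From light to darkness the mean for actin went from 4.45 to 4.06 in total and from 3.75 to 3.90 in polysomal RNA, the signs of the PWD differences, with arrays that overlapped in total RNA. GAPDH went the other way, from 0.91 to 1.11 in total and from 1.13 to 0.96 in polysomal RNA, and ubiquitin from 1.56 to 1.58 and from 1.47 to 1.32. After reillumination the means in total and polysomal RNA were 3.95 and 3.69 for actin, 1.01 and 1.25 for GAPDH, and 1.57 and 1.39 for ubiquitin. The part of RNA quality in the PWD result was not tested.

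For DPE1 the change of the gap from light to darkness was 0.23 ± 0.15 (95% interval -0.10 to 0.56, limma adjusted p = 0.503), 0.14 in replicate 1 and 0.32 in replicate 2. This missed the threshold, and its interval includes both 0 and part of the range given for PWD. Whether the genes differ from each other in this change was not tested. The dark responses can be set side by side by taking PWD minus DPE1 on each array relative to the mean of the light arrays of the pool. This value was -0.34 and -0.27 in dark total RNA and 0.16 and 0.08 in dark polysomal RNA. After reillumination the total RNA arrays gave -0.28 and -0.22 and the polysomal arrays -0.02 and 0.09, so that PWD stood lower against DPE1 on all 4 total RNA arrays without continued light and showed no common sign on the 4 such polysomal arrays.

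From darkness to reillumination the change of the gap between the pools was -0.27 ± 0.14 for PWD (limma adjusted p = 0.418), -0.25 in replicate 1 and -0.28 in replicate 2. DPE1 gave -0.13 ± 0.15 (limma adjusted p = 0.80). Neither was called, where 0.994% of all probe sets were called. This comparison shares the dark arrays with the one before. Between light and reillumination limma called 0% of the probe sets, and 621 had an unadjusted p under 0.05, fewer than expected without any difference. PWD gave 0.39 ± 0.14 (unadjusted p = 0.0154) and DPE1 0.10 ± 0.15.

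The change of the PWD gap from light to darkness can be split by pool, and only its polysomal part was called. Within polysomal RNA, PWD rose by 0.34 ± 0.10 from light to darkness (95% interval 0.12 to 0.55, 1.26-fold, limma adjusted p = 0.0325), by 0.38 in replicate 1 and 0.29 in replicate 2. In this comparison 17.2% of all probe sets were called and 8.49% were called higher. The call was lost with median centring (0.30, limma adjusted p = 0.0612), in a fit of the compared groups only (limma adjusted p = 0.0967), and without any 1 of the light or dark polysomal arrays (0.31 to 0.36, limma adjusted p up to 0.139). DPE1 differed by 0.21 ± 0.11 (95% interval -0.02 to 0.45, limma adjusted p = 0.219), 0.17 in replicate 1 and 0.26 in replicate 2. It was not called. Both dark polysomal arrays lay above both light ones, which groups of 2 arrays can do without a difference.

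Within total RNA, the PWD difference between darkness and light was -0.32 ± 0.10 (95% interval -0.53 to -0.11, limma adjusted p = 0.0636), -0.27 in replicate 1 and -0.36 in replicate 2. This missed the threshold, which it passed with the replicate experiment as a block (limma adjusted p = 0.0447). The arrays lay apart, which groups of 2 arrays can do without a difference. Of all probe sets 9.46% were called in this comparison and 5.07% were called lower. The DPE1 difference was -0.014 ± 0.11 (95% interval -0.25 to 0.22, limma adjusted p = 0.970), and its replicates had opposite signs, 0.03 and -0.06. PWD had a negative difference in total and a positive one in polysomal RNA, and differences of opposite sign in the pools were common, with 9099 of 22746 probe sets. By size, 77 probe sets lay at or below the total RNA difference of PWD and at or above its polysomal one, 1378 did so for DPE1 and 170 for AT4G24450.

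**Figure D4:**
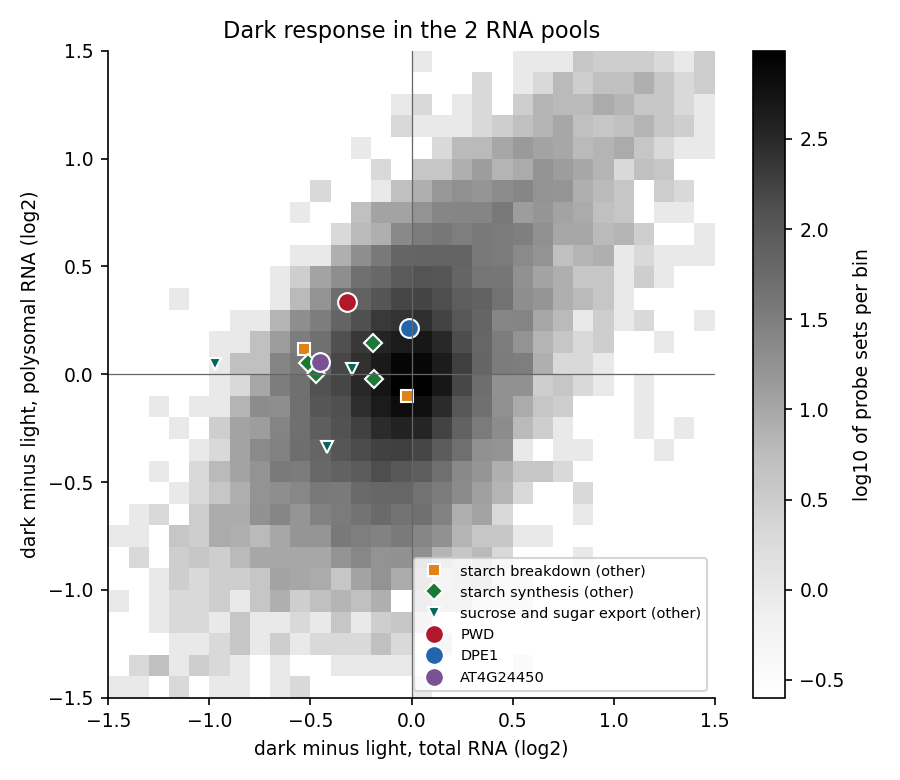
Dark minus light difference (log2) in total RNA (horizontal axis) against that in polysomal RNA (vertical axis); grey squares count all probe sets per bin on a log10 scale, differences beyond the axes are not drawn, and symbols mark PWD, DPE1, AT4G24450 and the other measured starch and sucrose genes. PWD lies in the upper left at -0.32 and 0.34, and DPE1 above the centre at -0.014 and 0.21.

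The 10 min of light brought no called difference for either gene. In polysomal RNA the PWD difference between reillumination and darkness was -0.20 ± 0.10 (95% interval -0.41 to 0.01, limma adjusted p = 0.261), -0.17 in replicate 1 and -0.23 in replicate 2, where 7.83% of all probe sets were called. DPE1 gave -0.11 ± 0.11 (limma adjusted p = 0.624), with 0.01 in replicate 1 and -0.24 in replicate 2. In total RNA the differences were 0.07 for PWD and 0.014 for DPE1 (limma adjusted p = 0.998 for both). There 0% of probe sets were called by limma and 12 were called with the replicate block. An unadjusted p under 0.05 was found for 980, fewer than expected without any difference.

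Against continued light, the reilluminated seedlings had PWD at -0.25 ± 0.10 in total RNA (limma adjusted p = 0.161), where 7.91% of all probe sets were called. In polysomal RNA the difference was 0.14 ± 0.10 (limma adjusted p = 0.490), where 8.88% were called. For PWD both differences had the sign of the dark response and were smaller than it. DPE1 gave -0.00066 in total RNA and 0.10 in polysomal RNA (limma adjusted p = 0.999 and 0.687). The comparisons with light share the light arrays, and those with darkness the dark arrays.

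AT4G24450, the second locus under the symbol PWD, had low levels. Of its other names in the table, ATGWD2 is in use for a glucan, water dikinase described outside the plastid, whereas GWD3 and the full name are those of PWD. Its log2 level was 5.89 and 6.31 in light, 5.73 and 5.56 in dark and 5.78 and 5.33 in reilluminated total RNA. In polysomal RNA it was 4.55 and 4.69, 4.63 and 4.73, and 4.56 and 4.38 in the same order. The polysomal values lie close to the lower quartiles of the arrays, which were between 4.07 and 4.17, so that the differences between the pools are limited from below by the background.

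AT4G24450 was lower in polysomal RNA in all conditions, at 35.9% of the total RNA level in light (log2 difference -1.48 ± 0.17, limma adjusted p = 9.46e-05), 51.1% in darkness (adjusted p = 0.00179) and 47.2% after reillumination (adjusted p = 0.00085). The difference between darkness and light was -0.45 ± 0.17 in total RNA (limma adjusted p = 0.136), -0.16 in replicate 1 and -0.74 in replicate 2. In polysomal RNA it was 0.06 ± 0.17 (limma adjusted p = 0.878). The change of the gap from light to darkness was 0.51 ± 0.24 (limma adjusted p = 0.309), 0.24 and 0.78 in the replicates, which differed far more than those of PWD. Between reillumination and light in total RNA the difference was -0.55 ± 0.17 (limma adjusted p = 0.0771, or 0.0326 with the replicate block).

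Other genes of starch and sucrose metabolism were taken from 3 lists. Few listed genes have a probe set tied to them alone: 4 of 29 for starch breakdown (PWD, DPE1, AMY1 and AT3G55760), 4 of 16 for starch synthesis (APL3, APL4, SBE2.2 and AT5G39790) and 3 of 16 for sucrose synthesis and sugar export (SPS4F, AT2G35840 and SWEET11). AMY1 is an alpha-amylase, APL3 and APL4 are large subunits of ADP-glucose pyrophosphorylase, and SBE2.2 is a starch branching enzyme. SPS4F is a sucrose phosphate synthase and SWEET11 a sucrose exporter. The enzyme that acts before PWD, and most amylases and debranching enzymes, were not analysed here.

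In total RNA, all 11 measured genes of the lists had a difference between darkness and light below 0, where 55.0% of all probe sets did. For DPE1 (-0.014) and AMY1 (-0.023) the difference was near 0 and turned positive with median centring and without 1 of the dark arrays, and that of SBE2.2 without 1 of the light arrays. Of the 11, 2 were called lower and 0 higher, beside 5.07% and 4.38% of all probe sets, and the median was -0.32 against -0.02 over all probe sets. The genes called lower were AT3G55760, which fell by 0.53 ± 0.11 (limma adjusted p = 0.0088), and SPS4F, which fell by 0.97 ± 0.21 (limma adjusted p = 0.013). The log2 level of SPS4F was 7.64 and 7.76 on the light total arrays and 6.53 and 6.93 on the dark ones, and that of AT3G55760 was 7.07 and 7.10 against 6.61 and 6.50. Neither pair of groups overlapped. Without PWD and DPE1 the median of the other 9 genes was -0.42. With the replicate block APL3, APL4 and SWEET11 were called lower too (limma adjusted p = 0.025, 0.0118 and 0.0213). The dark total RNA levels of APL3 (4.23 and 3.97) and APL4 (4.51 on both arrays) lay at or near the arrays' lower quartile, so that the size of these differences is limited by the background.

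In polysomal RNA, PWD was the 1 gene of the 11 called higher in darkness, beside 8.49% of all probe sets, and the median was 0.05 against -0.02 over all probe sets. The other genes there lay between -0.34 (SWEET11) and 0.21 (DPE1). The change of the difference between the pools from light to darkness was above 0 in 10 of 11 genes and in 52.1% of all probe sets, with a median of 0.34 against 0.02. PWD alone was called among them (0.65), beside 0.334% of all probe sets called higher. This call was lost with any 1 array left out. SPS4F gave 1.02 ± 0.30 (limma adjusted p = 0.105, or 0.0128 with the replicate block) and AT3G55760 gave 0.65 ± 0.15 (limma adjusted p = 0.0604, or 0.0206 with the block). AMY1, at log2 levels of 4.38 to 4.75 and thus near the arrays' lower quartile, gave -0.08.

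**Figure D5:**
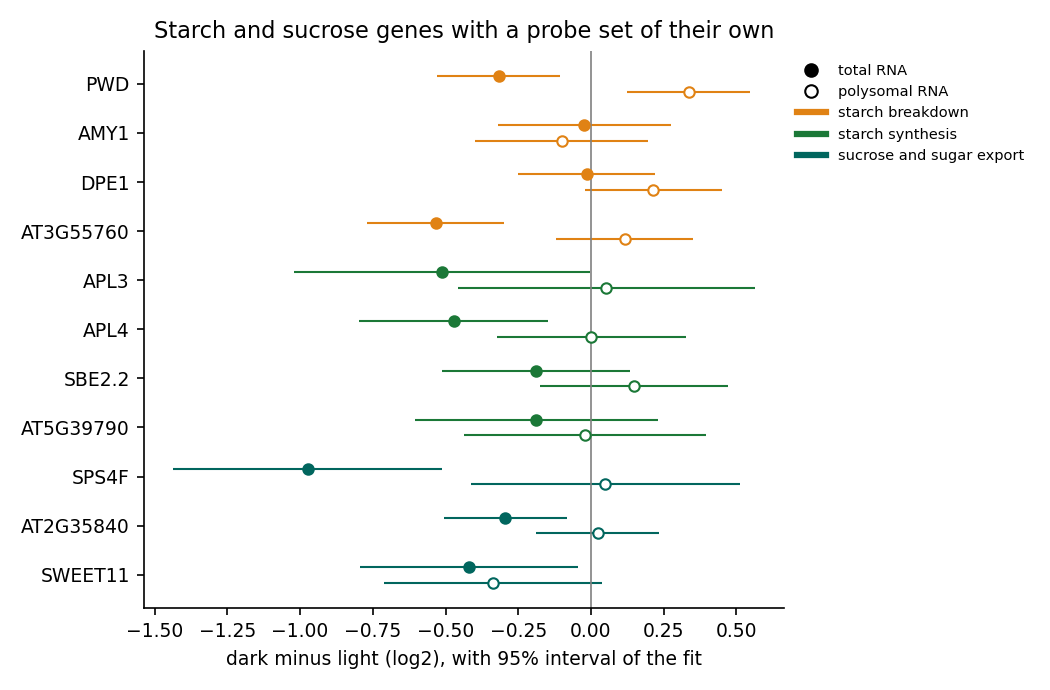
Dark minus light difference (log2, horizontal axis) of the 11 measured starch and sucrose genes in total RNA (filled) and polysomal RNA (open), with 95% intervals of the fit; colours give the list. All 11 filled points lie left of 0, and PWD has the highest open point at 0.34.

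In light, 8 of the 11 genes were called lower in polysomal than in total RNA, beside 17.6% of all probe sets, with a median of -0.64. They were PWD, DPE1, SPS4F (-1.56), SBE2.2 (-0.83), AT5G39790 (-0.75), APL4 (-0.64), AT3G55760 (-0.61) and AT2G35840 (-0.36). In darkness 4 were called lower, beside 11.8% of all probe sets: PWD, DPE1, SBE2.2 (-0.50 ± 0.15, limma adjusted p = 0.0301) and AT5G39790 (-0.58 ± 0.19, limma adjusted p = 0.046). After reillumination there were 5, beside 14.6%, namely these 4 and SPS4F (-1.17). The medians of the 11 genes were -0.19 in darkness and -0.25 after reillumination. In total RNA of reilluminated against light seedlings, AT3G55760 fell by 0.56 (limma adjusted p = 0.00743) and APL4 fell by 0.73 (limma adjusted p = 0.0113), beside 3.84% of all probe sets called lower. APL4 was at 4.40 and 4.12 on the reilluminated total RNA arrays, about the arrays' lower quartile, so that the size of its fall is limited by the background.

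Markers of leaf and root were read as a check of the label whole seedlings. Of 10 leaf markers 3 had a probe set of their own, the Calvin cycle enzymes PRK and SBPASE and the Rubisco activase RCA, and of 10 root markers 1, the root hair expansin EXPA7. The mean log2 level of the leaf markers was 12.47 to 12.48 in light, 12.08 to 12.22 in dark and 12.18 to 12.21 in reilluminated total RNA. In polysomal RNA it was 11.93 to 12.05, 11.56 to 11.79 and 11.69 to 11.80. This mean lay lower in darkness than in light in both pools. Of the 3 markers, PRK alone was called in polysomal RNA, where it fell by 0.53 (limma adjusted p = 0.0113), beside 17.2% of all probe sets called. RCA and SBPASE gave -0.39 and -0.04 there, and the SBPASE replicates had opposite signs (-0.23 and 0.15). EXPA7 was at 5.30 to 5.94 in total and 4.45 to 4.69 in polysomal RNA. It was called lower in polysomal RNA in light (-1.11), darkness (-0.98) and after reillumination (-1.04), beside 17.6%, 11.8% and 14.6% of all probe sets. Its polysomal values are near the arrays' lower quartile, which limits the size of these differences. The leaf markers were lower in polysomal RNA too. Of these, 2 of 3 were called in light (median -0.35), 3 of 3 in darkness (-0.49) and 3 of 3 after reillumination (-0.42). The part of cell types in the differences between the pools was not tested.

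As a description of likeness, the profiles over the 12 arrays were compared by Pearson's r with the 6203 probe sets tied to 1 gene whose group means span at least 0.5. Arrays of both pools enter these r, so that a gap between the pools counts in them, and the arrays of an extract are not independent. The part of that gap in r was not tested. Nearest to PWD were AT3G46960 (0.986), AT5G13980 (0.985), AT5G23390 (0.982), ndhC (0.981) and AT1G06640 (0.981). Of these, AT5G13980 had a called change of the gap from light to darkness (0.73, limma adjusted p = 0.0453), beside 0.334% of all probe sets called higher. Its difference between darkness and light in polysomal RNA was 0.46 (limma adjusted p = 0.01), where 8.49% were called higher. The chloroplast transcript ndhC had a larger difference in polysomal RNA (0.72, limma adjusted p = 0.00298), and its change of the gap was 0.83 (limma adjusted p = 0.0562). Both genes were picked for likeness to PWD on the same arrays, so their values are not independent of the PWD result. The tagged L18B belongs to cytosolic ribosomes, so polysomal values of chloroplast transcripts are not read here as their loading on ribosomes.

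Nearest to DPE1 were ATU2AF65A (0.994), psbE (0.993), AT1G77480 (0.992), ndhI (0.992) and psbF (0.991). Here psbE, psbF and ndhI are encoded in the chloroplast, and their group means span 4.96, 4.82 and 3.81 log2 units, whereas those of DPE1 span 0.88. The likeness is thus one of shape and not of size. In polysomal RNA these 3 were called higher in darkness than in light, by 0.73 (psbE), 0.73 (psbF) and 0.78 (ndhI), beside 8.49% of all probe sets. They were picked for likeness to DPE1 on the same arrays, and DPE1 was not called there. As for ndhC, the values of these 3 are not read as loading on ribosomes. PWD and DPE1 had r = 0.972 with each other, and 34 probe sets had a higher r with PWD and 85 with DPE1 than this. AT4G24450 had r = 0.960 with PWD, and its nearest profile was AT3G46960 (0.974), which was the nearest to PWD as well.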

How the data were processed

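The authors deposited log2 values made with RMA and affy (no versions stated), per the submitters' processing notes. Aligned distributions make every difference relative, and array medians lay between 6.04 and 6.19. Of 22810 probe sets, 64 controls were set aside. The platform annotation ties 13513 of the other 22746 to 1 gene and 503 to several and does not list 8730. The RefSeq gene table (TAIR10.1) matched 13436. For a gene with several probe sets, a plain name was preferred to one marking cross-hybridization, then the highest mean.

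Group means of all 12 arrays were fitted with limma 3.58.1 in R 4.3.3 (lmFit, eBayes, two-sided, 6 residual and 5.48 prior degrees of freedom). The number of arrays limits precision: the median standard error was 0.13, or 0.19 for an interaction. The script was tested on simulated data. Figures used Python 3.11.15 and matplotlib 3.10.9.

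The named genes are PWD and DPE1, all measured genes of the starch and sucrose lists, the marker genes, and the 5 nearest profiles per member. Members and lists were chosen with earlier results of these data known. AT4G24450 was added because the annotation gives it the same symbol. Per the labels, a replicate number marks an independent experiment. Deviations of same-numbered arrays from their group means correlated at 0.29 to 0.51 over 15 of 15 pairs of groups, so the number was taken to pair the arrays. The main fit, and thus its p-values, leaves this pairing out, and the block is an alternative. Other alternatives were median centring, quantile normalization, a filter at log2 5, a trended robust prior, fits of the compared groups only, leaving out each array and, added after the data were seen, the extract as a random block. Promoter motifs and protein sequences were not analysed here.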

Additional observations from a re-analysis of the deposited data

Results flagged for a closer look

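The change of the PWD difference between polysomal and total RNA from light to darkness, 0.65 on the log2 scale, stood out because the dark response differed between the 2 RNA pools by the test of the difference itself (limma adjusted p = 0.0485). The dark response of PWD was -0.32 in total and 0.34 in polysomal RNA. For DPE1 the same test gave 0.23 (limma adjusted p = 0.503). The PWD call lies near the threshold. It was lost with median centring (0.59), with the compared groups only, and with any 1 array left out (0.62 to 0.68). With 2 arrays per group, an outlying array cannot be told from its partner.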

How the results depend on the processing

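PWD, DPE1 and AT4G24450 were called lower in polysomal than in total RNA in all 3 conditions under all 19 alternatives, with PWD between -1.27 and -1.13 in light, -0.61 and -0.54 in darkness and -0.89 and -0.74 after reillumination. Median centring raised the median difference between the pools over all probe sets from 0.03 to 0.14 in light. The PWD change of that gap from light to darkness was called under 5 of 19 alternatives, among them the replicate block (limma adjusted p = 0.016) and the extract as a random block. It was lost with median centring (0.59), with the compared groups only (0.65), and with any 1 array left out (0.62 to 0.68). The PWD rise in polysomal RNA was lost with median centring (0.30), with the compared groups only (0.34) and, over the fits that leave out 1 array (0.31 to 0.36), with each of 4. The PWD difference in total RNA (-0.32) was called with the replicate block alone. The block turned no other PWD or DPE1 result. The cause was not tested.

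Small DPE1 differences in total RNA changed sign, none of them called. For darkness against light it was 0.020 with median centring and -0.070 to 0.042 with 1 array left out. For reillumination against darkness it was -0.0038 with median centring, -0.0012 with quantile normalization and -0.045 to 0.073 with 1 array left out. For reillumination against light it was 0.016 with median centring and -0.060 to 0.058 with 1 array left out. AT4G24450 changed sign with 1 array left out in dark against light polysomal RNA (-0.013 to 0.13), in reilluminated against dark total RNA (-0.32 to 0.13) and in the change of the gap between them (-0.34 to 0.11).

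The replicate block raised the count of all probe sets called from 2151 to 3593 for darkness against light in total RNA, from 1780 to 3430 for reillumination against darkness in polysomal RNA, from 1800 to 3111 and 2020 to 3409 for reillumination against light in total and polysomal RNA, and from 247 to 1712 and 226 to 1086 for the change of the gap from light to darkness and from darkness to reillumination. With the compared groups only, the last 2 were 0 and 3. For darkness against light in total RNA and reillumination against darkness in polysomal RNA, the compared groups alone gave 1165 and 829. With 1 array left out the counts ran from 983 to 2089 and from 2124 to 4044 for darkness against light in total and polysomal RNA. For reillumination against darkness in polysomal RNA they ran from 431 to 1865, for reillumination against light from 837 to 1884 in total and from 988 to 2118 in polysomal RNA. For polysomal against total RNA they ran from 3367 to 5319 in darkness and from 3971 to 6337 after reillumination, and for the gap from 0 to 537 and from 2 to 357. The shares of all probe sets called, given beside the members, move with these counts. Of 2928 alternatives for the other listed and marker genes, 84 lost a call and 35 gained one, no called value changed sign, and 104 uncalled ones did.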
